A study of Homo sapiens with 18 samples.

Results

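The intestinal differentiation genes described here are 9 genes of the intestinal epithelium and its regulators, of 26485 gene symbols counted in SW620 cells, a colon cancer line. They are the transcription factors CDX1, CDX2 and HNF4A, the structural protein gene VIL1, and CDH17, AGR2, DDC, ARSE and A1CF. The last 5 were picked for their strong fall with siLonp1 in these same libraries, so their siLonp1 values are given as a description and with no test. CDX1, CDX2, HNF4A and VIL1 were not picked in that way, and no member was picked on its response to heat.

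RNAseq was available for 18 libraries in 6 groups of 3, and the groups combined an siRNA with a heat condition. Cells received a scramble siRNA or siRNA against Lonp1 (siLonp1). Ctrl cells stayed at 37 °C throughout, HS cells spent 1 h at 42 °C, and HS+REC cells were given 1 h of recovery at 37 °C after the same heat. The methods name a pair of siRNAs against Lonp1 and do not say which of them, or whether both, entered the cells used for RNAseq, and all 6 groups are the same cell line. The study asked how silencing Lonp1 alters the response to HS, and the comparison of siLonp1 with scramble siRNA in each condition, and of heat with Ctrl in each siRNA arm, addresses that question for these genes.

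CDX1 and CDX2 are homeobox factors that set intestinal identity, and HNF4A is a nuclear receptor that acts with them at the genes of absorptive cells. Villin, the product of VIL1, bundles actin in the microvilli of the brush border, and CDH17 encodes liver-intestine cadherin, an adhesion protein of the enterocyte membrane. AGR2 is a protein disulphide isomerase of the endoplasmic reticulum that secretory cells need to make mucin. DDC encodes aromatic L-amino acid decarboxylase, which makes serotonin and dopamine from their precursors, A1CF binds the APOB transcript and complements the cytidine deaminase that edits it, and ARSE encodes an arylsulfatase and is named ARSL in current annotation.

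The sequence before the transcription start is shown for DDC, the member with the deepest fall, for AGR2, which secretory cells express, and for CDX2, the member that binds DNA and fell most. RefSeq (GRCh38.p14) gave 8 promoters for 6 of the 9 members, namely CDX2, HNF4A, AGR2, DDC, ARSE and A1CF, and none was used for CDX1, VIL1 and CDH17. Each line holds the 250 bases before the start, read 5′ to 3′ on the minus strand that carries these genes. The AGR2 stretch is chr7:16805000-16805249, the DDC stretches are chr7:50565406-50565655 for the first start and chr7:50561072-50561321 for the second, and the CDX2 stretch is chr13:27969316-27969565. Capitals mark matches, on either strand, to TTTATG (bound by CDX factors), CAAAGTNCA (HNF4), TGTTTAC (FOXA), to GAANNTTC, the core of a heat shock element, or to AGATAA, the letters of GATA factors.
AGR2: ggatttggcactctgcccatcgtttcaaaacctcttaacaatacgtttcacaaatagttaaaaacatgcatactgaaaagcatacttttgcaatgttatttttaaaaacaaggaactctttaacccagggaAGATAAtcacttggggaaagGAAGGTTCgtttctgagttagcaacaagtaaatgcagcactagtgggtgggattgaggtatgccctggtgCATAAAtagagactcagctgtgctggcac
DDC first start: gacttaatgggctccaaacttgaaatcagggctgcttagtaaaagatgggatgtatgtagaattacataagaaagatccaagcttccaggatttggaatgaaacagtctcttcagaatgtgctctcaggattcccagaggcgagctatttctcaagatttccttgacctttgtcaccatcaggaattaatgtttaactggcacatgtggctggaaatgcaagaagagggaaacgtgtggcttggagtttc
DDC second start: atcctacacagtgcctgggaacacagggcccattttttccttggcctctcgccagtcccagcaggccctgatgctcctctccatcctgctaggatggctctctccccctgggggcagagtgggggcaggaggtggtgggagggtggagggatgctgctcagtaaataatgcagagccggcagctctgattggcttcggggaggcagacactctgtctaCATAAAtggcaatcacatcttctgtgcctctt
CDX2: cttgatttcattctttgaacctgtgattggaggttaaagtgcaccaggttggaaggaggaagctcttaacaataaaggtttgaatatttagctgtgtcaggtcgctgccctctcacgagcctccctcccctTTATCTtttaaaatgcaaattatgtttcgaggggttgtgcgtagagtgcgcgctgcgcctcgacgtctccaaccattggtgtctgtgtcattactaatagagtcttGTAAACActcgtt

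The CDX letters stood 29 bases before the start of AGR2 and 32 bases before the second start of DDC, both times as CATAAA. They were in 2 of the 8 member promoters, and in 9.64% of all 35116 RefSeq promoters over the same 250 bases. GATA letters were in 4 of the 8, those of CDX2, HNF4A (first start), AGR2 and A1CF, against 9.17% of all promoters. The FOXA letters were in 1, that of CDX2 at 13 bases before the start, against 2.98%, and the heat shock letters were in 1, that of AGR2 at 99 bases before the start, against 5.78%. The HNF4 letters as searched, CAAAGTNCA, were in 0 of the 8, against 0.94% of all promoters, and other forms of the site were not searched. None of these matches overlapped another. A match describes the letters only, since no binding was measured.

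LONP1 itself, the target of the siRNA, was lowered in every siLonp1 library. It ran from 196 to 233 CPM (counts scaled to the library size after TMM normalization) in the 9 scramble libraries. In siLonp1 libraries it ran from 19.4 to 22.4 CPM in Ctrl, from 11.5 to 11.8 CPM in HS and from 25.6 to 28.8 CPM in HS+REC. Library totals ran from 30815860 counts in HS scramble replicate 3 to 47279297. All 11 epithelial markers, including EPCAM, KRT8 and CDH1, were tested, and their summed level lay between 8747 and 12160 CPM over the 18 libraries. It was 9184 to 9595 CPM in Ctrl scramble and 10280 to 10950 CPM in Ctrl siLonp1. In HS it was 9822 to 10220 CPM with scramble siRNA and 11580 to 12160 CPM with siLonp1. In HS+REC the arms overlapped, at 8747 to 10100 and 8821 to 10890 CPM. The summed fibroblast and muscle markers lay between 26.1 and 64.98 CPM, mostly LUM and COL1A1, the immune and endothelial markers between 12.07 and 20.94 CPM and the hepatocyte markers between 7.169 and 12.91 CPM. Of these lists 4 of 10, 3 of 9 and 2 of 8 genes passed the filter on low counts, among them CD14, CD68, VWF, SERPINA1 and CYP2E1. PTPRC, which defines blood cells, reached at most 0.0740 CPM, ALB, of hepatocytes, 0.129 CPM and PECAM1, of endothelium, 0.432 CPM.

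CDX1 had 0 counts in all 18 libraries, which allows a level of up to 0.0635 to 0.0974 CPM (3 counts in a library), so no comparison was possible for it. The other 8 members passed the filter on low counts. Compared per kilobase of exon in Ctrl scramble cells, VIL1 was highest at a mean of 50.5 CPM per kb, followed by HNF4A at 14.0 and CDX2 at 8.38 CPM per kb. DDC and AGR2 came next at 5.48 and 5.46 CPM per kb, and their libraries overlapped, from 4.75 to 6.03 for DDC and from 5.12 to 5.73 for AGR2. CDH17 followed at 2.64 CPM per kb, and A1CF and ARSE were lowest at 0.443 and 0.398 CPM per kb, again with overlapping libraries. In Ctrl siLonp1 cells the order began with the same 3 genes, VIL1 at 49.2, HNF4A at 10.4 and CDX2 at 4.48 CPM per kb, and DDC stood at 0.246 CPM per kb, below AGR2 at 0.969 CPM per kb. CDH17 was at 0.304 CPM per kb there, and its libraries (0.274 to 0.355) overlapped those of DDC (0.19 to 0.339).

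**Figure D1:**
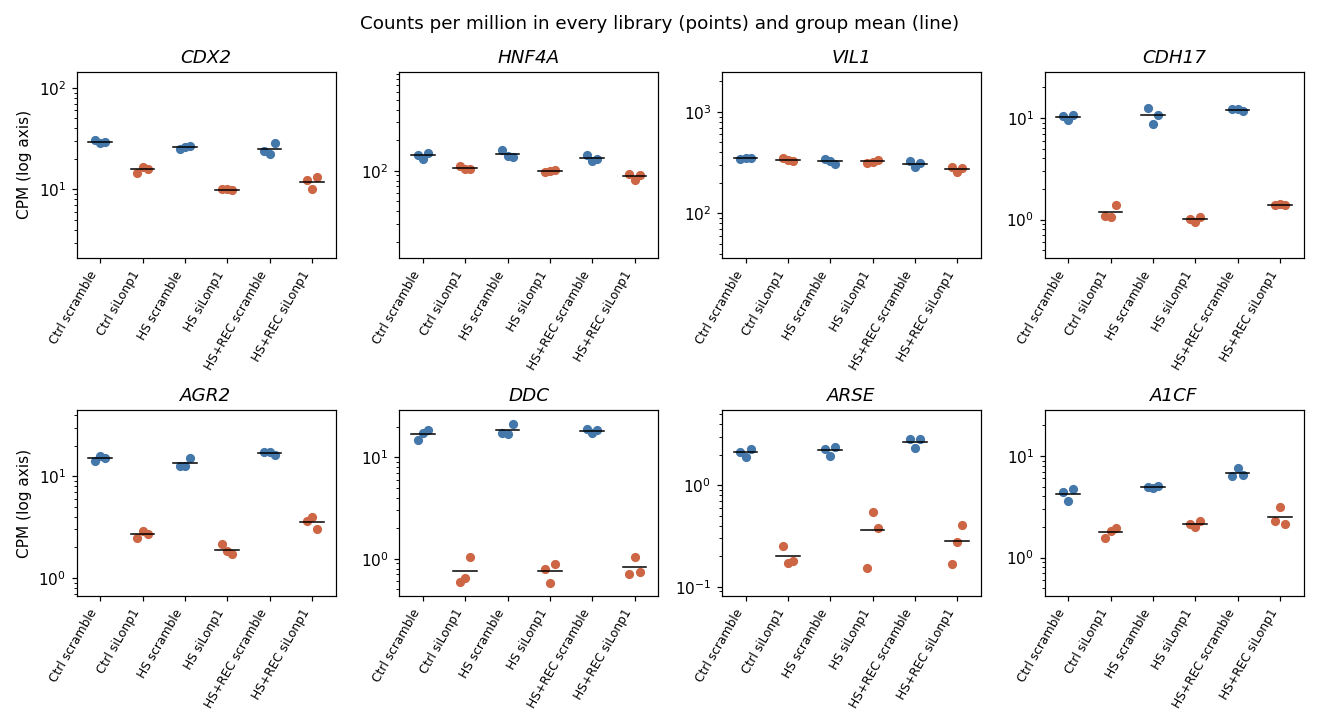
CPM (log axis, the same span in factors for each gene) of the 8 members with counts, in the 18 libraries; points are libraries, blue for scramble siRNA and orange for siLonp1, and the line is the mean of 3. DDC, CDH17 and AGR2 dropped to between 0.578 and 3.99 CPM in every siLonp1 library, CDX2 and HNF4A shifted less, and VIL1 overlapped between the arms.

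CDX2 fell with siLonp1 in all 3 conditions. In Ctrl it had 30.5, 28.8 and 29.1 CPM in the scramble libraries and 14.6, 16.8 and 15.9 CPM in the siLonp1 libraries. In HS the scramble libraries had 24.9, 26.2 and 27.0 CPM and the siLonp1 libraries 10.0, 10.0 and 9.96 CPM. In HS+REC they had 24.0, 22.4 and 28.5 CPM against 12.3, 10.2 and 13.2 CPM. The arms did not overlap in any condition, and the siLonp1 mean was 53.4%, 38.4% and 47.7% of the scramble mean in Ctrl, HS and HS+REC. The log2 fold change was -0.90 ± 0.09 in Ctrl (adjusted p = 2.11e-08), -1.38 ± 0.09 in HS (adjusted p = 4.18e-11) and -1.07 ± 0.09 after recovery (adjusted p = 1.93e-09), where ± is the standard error from edgeR.

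HNF4A fell as well, by a smaller step. Its scramble libraries had 144, 132 and 151 CPM in Ctrl, 159, 140 and 137 CPM in HS and 143, 123 and 131 CPM in HS+REC. Its siLonp1 libraries had 112, 103 and 103 CPM in Ctrl, 96.7, 99.8 and 101 CPM in HS and 93.7, 82.0 and 90.9 CPM in HS+REC. Every siLonp1 library was below every scramble library of its condition, and the log2 fold change was -0.42 ± 0.07 in Ctrl, -0.55 ± 0.07 in HS and -0.58 ± 0.07 after recovery, with adjusted p = 3.44e-05, 1.01e-06 and 4.97e-07. Averaged over the conditions it was -0.52 ± 0.04, against -1.12 ± 0.05 for CDX2.

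VIL1 overlapped between the arms in all 3 conditions. It had 345, 349 and 350 CPM in Ctrl scramble and 352, 335 and 330 CPM in Ctrl siLonp1, and 340, 328 and 310 CPM in HS scramble and 316, 320 and 339 CPM in HS siLonp1. After recovery it had 326, 285 and 312 CPM with scramble siRNA and 287, 256 and 281 CPM with siLonp1. The log2 fold change with siLonp1 was -0.04 in Ctrl (adjusted p = 0.632, 95% interval -0.16 to 0.09) and -0.004 in HS (adjusted p = 0.96, 95% interval -0.13 to 0.12). In HS+REC it was -0.16 ± 0.06 (adjusted p = 0.0243), a call that was lost when HS+REC scramble replicate 1 or 3 or HS+REC siLonp1 replicate 2 was left out, with adjusted p = 0.133, 0.0603 and 0.128. The average over the conditions was -0.07 with a 95% interval of -0.14 to 0.003 and an adjusted p of 0.0795, and with library sizes alone in place of TMM it was -0.15 with an adjusted p of 0.000498.

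DDC, the decarboxylase, showed the lowest log2 fold change of all 12832 genes tested in each of the 3 conditions. With scramble siRNA it had 14.7, 17.4 and 18.6 CPM in Ctrl, 17.4, 16.9 and 21.4 CPM in HS and 18.8, 17.4 and 18.4 CPM in HS+REC. With siLonp1 it had 0.585, 0.642 and 1.05 CPM in Ctrl, 0.797, 0.578 and 0.880 CPM in HS and 0.713, 1.04 and 0.741 CPM in HS+REC, from 22 to 41 counts a library. No siLonp1 library came near a scramble library, and the siLonp1 mean was 4.49%, 4.05% and 4.57% of the scramble mean. The log2 fold changes were -4.48 ± 0.16, -4.61 ± 0.17 and -4.45 ± 0.16 in Ctrl, HS and HS+REC, and DDC was chosen for such values.

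CDH17, the cadherin, had rank 4 from the lowest in Ctrl and rank 3 in HS and in HS+REC. With scramble siRNA it had 10.5, 9.46 and 10.8 CPM in Ctrl, 12.6, 8.76 and 10.7 CPM in HS and 12.3, 12.2 and 11.8 CPM in HS+REC. With siLonp1 it had 1.09, 1.06 and 1.38 CPM in Ctrl, 1.00, 0.946 and 1.06 CPM in HS and 1.38, 1.42 and 1.38 CPM in HS+REC. The siLonp1 mean was 11.5%, 9.37% and 11.5% of the scramble mean, with log2 fold changes of -3.12 ± 0.14, -3.41 ± 0.14 and -3.11 ± 0.13.

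AGR2, the disulphide isomerase, retained somewhat more of its transcript. With scramble siRNA it had 14.1, 15.9 and 15.2 CPM in Ctrl, 12.6, 12.6 and 15.3 CPM in HS and 17.3, 17.3 and 16.3 CPM in HS+REC. With siLonp1 it had 2.49, 2.86 and 2.68 CPM in Ctrl, 2.13, 1.84 and 1.71 CPM in HS and 3.61, 3.99 and 3.04 CPM in HS+REC. The siLonp1 mean was 17.8%, 14.1% and 20.9% of the scramble mean, and the log2 fold changes were -2.49 ± 0.11, -2.82 ± 0.12 and -2.25 ± 0.10.

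ARSE and A1CF were the least abundant of the tested members in scramble libraries. ARSE had 1.89 to 2.88 CPM in the 9 scramble libraries and 0.154 to 0.552 CPM in the 9 siLonp1 libraries, where it rested on 6 to 21 counts a library. Its log2 fold change was -3.36 ± 0.29 in Ctrl, -2.60 ± 0.26 in HS and -3.24 ± 0.26 after recovery, and the HS value was -3.02 without HS siLonp1 replicate 2, which had 21 counts, and -2.24 without replicate 1, which had 6. A1CF had 4.45, 3.57 and 4.73 CPM with scramble siRNA and 1.55, 1.83 and 1.97 CPM with siLonp1 in Ctrl, and 4.95, 4.79 and 5.02 against 2.16, 1.997 and 2.29 CPM in HS. In HS+REC it had 6.34, 7.58 and 6.48 against 2.31, 3.18 and 2.12 CPM, and its log2 fold changes of -1.25 ± 0.15, -1.19 ± 0.14 and -1.42 ± 0.14 were the smallest of the 5 chosen genes. The arms did not overlap for either gene in any condition.

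**Figure D2:**
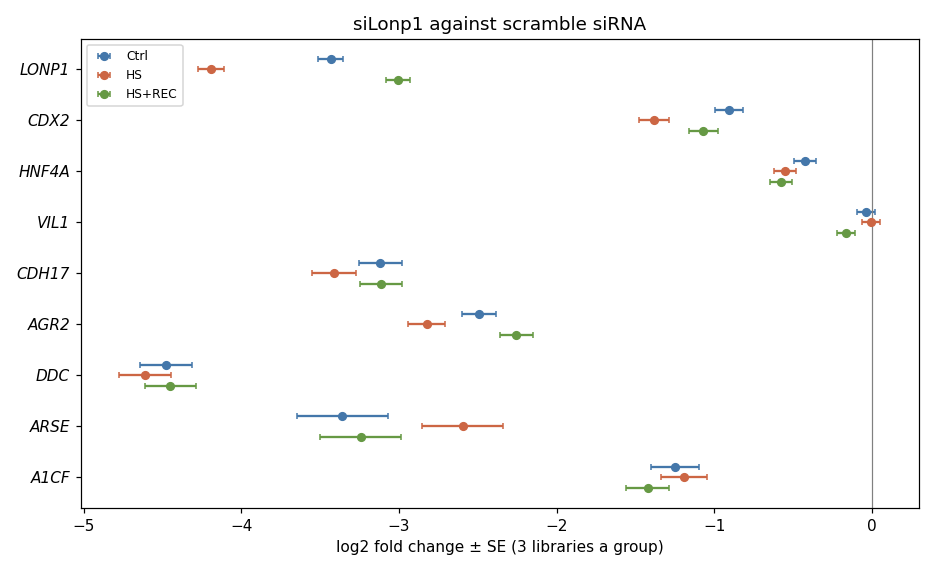
log2 fold change of siLonp1 against scramble siRNA for LONP1 and the 8 members tested, in Ctrl, HS and HS+REC; bars are the standard error from edgeR over 3 libraries a group. DDC lies beyond -4.4 in every condition, CDX2 between -0.90 and -1.38, HNF4A between -0.42 and -0.58, and VIL1 next to 0.

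For CDX2, HNF4A and the 5 chosen genes, every siLonp1 library lay below every scramble library in all 3 conditions, and for VIL1 the arms overlapped. Nothing is read from the 5 genes here, since they were chosen on this contrast. Of the 3 tested members not picked for their fall, 2 were below in that sense, against 17.1% of all 12832 genes below and 18.4% above. Of the same 3, CDX2 was lower by more than a fold of 2 in HS and in HS+REC and none was in Ctrl, against 1.54% of all genes for Ctrl, 1.61% for HS and 1.33% for HS+REC. The HS+REC value of CDX2 fell short of that fold without HS+REC scramble replicate 3 (-0.96) or HS+REC siLonp1 replicate 2 (-0.97). At an adjusted p of 0.05 and any fold, CDX2 and HNF4A were lower in Ctrl and in HS, and all 3 in HS+REC, against 22.9%, 26.7% and 27.3% of all genes. In whole-culture RNA, fewer cells expressing a gene and less of its transcript per cell cannot be told apart.

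The members also differed from each other in how closely they followed one another over the 18 libraries. Pearson's r of log2 CPM was 0.993 for CDH17 and DDC, 0.985 for CDH17 and AGR2, and 0.906 for CDX2 and HNF4A, whereas VIL1 reached 0.581 with HNF4A, 0.402 with CDX2 and 0.122 with AGR2. The libraries of most of these genes fall into a scramble and a siLonp1 cluster, so these values describe the libraries and carry no test. By the same measure the genes most like CDH17 were DDC, THNSL1 and COL4A2, with COL4A2 at a log2 fold change of -1.65 averaged over the conditions. The genes most like AGR2 were LONP1 (r = 0.992), CDH17 and IL1R2, those most like DDC were CDH17, COL4A2 and THNSL1, and those most like CDX2 were TONSL (r = 0.977), NOC4L and SHCBP1. SDHA (r = 0.973), NCAPD2 and DDX23 were most like HNF4A, ITFG3 (r = 0.928), VAV2 and ST14 most like VIL1, CCHE1, PEX26 and ACSL5 most like ARSE, and PARP2, SLC22A3 and RRAGD most like A1CF.

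HS with scramble siRNA changed 0 of the 8 members at an adjusted p of 0.05, and 0 by DESeq2 and 0 at an unadjusted p under 0.05 (CDX2 lay at 0.05), while 17.3% of all genes were lower and 18.6% higher. The CDX2 value was -0.18 ± 0.09 (adjusted p = 0.112), and it passed with only the Ctrl and HS libraries in the fit, at -0.16 (adjusted p = 0.0412). DDC was at 0.13 with a 95% interval of -0.10 to 0.36, and CDH17 at 0.06 with an interval of -0.15 to 0.27.

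HS in siLonp1 cells lowered 2 members, CDX2 and AGR2, and raised 0, against 22.1% of all genes lower and 20.2% higher. CDX2 went from 14.6 to 16.8 CPM in Ctrl siLonp1 to 9.96 to 10.0 CPM in HS siLonp1, with no overlap, a log2 fold change of -0.66 ± 0.10 (adjusted p = 5.1e-06). AGR2 went from 2.49 to 2.86 CPM to 1.71 to 2.13 CPM, also with no overlap, a log2 fold change of -0.50 ± 0.14 (adjusted p = 0.00509). ARSE and DDC passed the filter through their scramble libraries, and ARSE had 0.173 to 0.254 CPM in Ctrl siLonp1 and 0.154 to 0.552 CPM in HS siLonp1, which overlap. LONP1 was also lower in HS siLonp1 than in Ctrl siLonp1, by -0.80 ± 0.08 (adjusted p = 2.5e-08), and its part in these values was not tested.

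After recovery CDX2 and VIL1 were lower than in Ctrl and A1CF was higher, in both arms. In scramble cells 2 members were lower in HS+REC than in Ctrl and 1 was higher, against 20.5% and 21.8% of all genes. CDX2 was at -0.24 ± 0.09 (adjusted p = 0.0281) and VIL1 at -0.18 ± 0.06 (adjusted p = 0.0177). The CDX2 call was lost without Ctrl scramble replicate 1 or 3 or HS+REC scramble replicate 1 or 2, at adjusted p from 0.053 to 0.158, and the VIL1 call without Ctrl scramble replicate 3 (adjusted p = 0.0505) or HS+REC scramble replicate 2 (adjusted p = 0.116). A1CF rose from between 3.57 and 4.73 CPM to between 6.34 and 7.58 CPM, without overlap, by 0.68 ± 0.13 on the log2 scale (adjusted p = 0.00012). CDH17 was at 0.24 ± 0.10 (adjusted p = 0.0622), and it passed with adjusted p = 0.0376 and 0.0298 without HS scramble replicate 1 or 2.

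In siLonp1 cells HNF4A was lower as well and AGR2 higher, so that 3 members were lower in HS+REC than in Ctrl and 2 were higher, against 26.6% and 24.6% of all genes. CDX2 was at -0.40 ± 0.09 (adjusted p = 0.00089), HNF4A at -0.25 ± 0.07 (adjusted p = 0.00479) and VIL1 at -0.30 ± 0.06 (adjusted p = 0.000154). AGR2 was at 0.41 ± 0.12 (adjusted p = 0.0089), and at 0.32 (adjusted p = 0.0578) without HS+REC siLonp1 replicate 2. A1CF was at 0.51 ± 0.16 (adjusted p = 0.0114), a call that was lost without Ctrl siLonp1 replicate 1 (adjusted p = 0.0628) or HS+REC siLonp1 replicate 2 (adjusted p = 0.115). HS and HS+REC are compared with the same Ctrl libraries, so their values for a gene are not independent of each other. AGR2 in siLonp1 cells lay on either side of Ctrl, lower in HS and higher in HS+REC. LONP1 was higher in HS+REC siLonp1 than in Ctrl siLonp1 by 0.41 ± 0.08 (adjusted p = 9.24e-05), and its part in the values of the members was not tested.

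**Figure D3:**
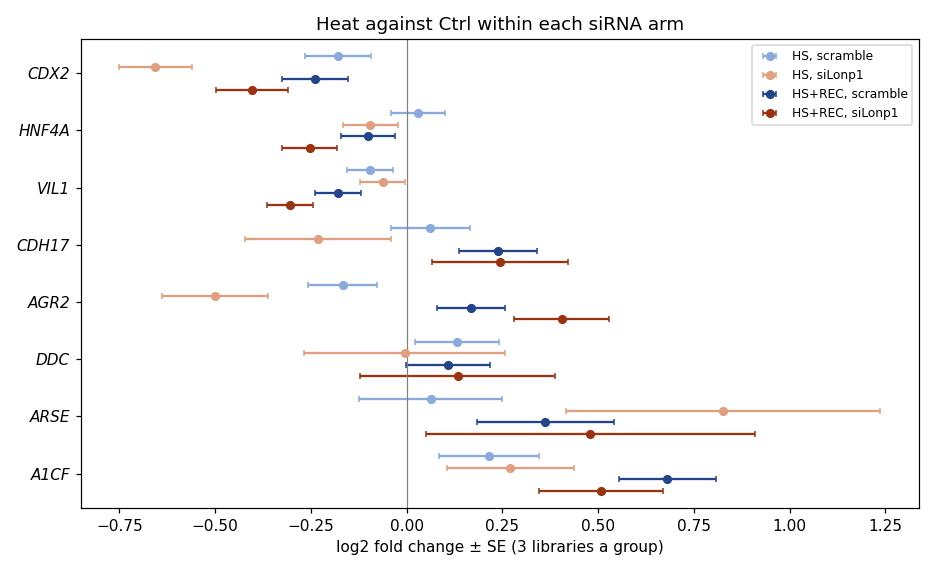
log2 fold change of HS and HS+REC against Ctrl in each siRNA arm for the 8 members tested; bars are the standard error from edgeR over 3 libraries a group. CDX2 is lowest at -0.66 for HS in siLonp1, A1CF is at 0.68 and 0.51 in HS+REC, and ARSE and DDC have wide bars in siLonp1 cells, where they had few counts.

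Whether the siLonp1 effect changed with heat was tested for CDX2, HNF4A and VIL1, and 0 of the 3 passed for HS or for HS+REC in edgeR. Over all genes the interaction with HS was below 0 for 1.39% and above 0 for 0.475%, and that with HS+REC for 0.896% and 0.686%. CDX2 was the only one of the 3 at an unadjusted p under 0.05, in the interaction with HS, and with DESeq2 1 of the 3 passed for HS and 0 for HS+REC. The CDX2 difference between its siLonp1 effects in HS and in Ctrl was -0.48, with a 95% interval of -0.74 to -0.21 and an adjusted p of 0.0552. It passed with DESeq2 (adjusted p = 0.0219), with library sizes alone (adjusted p = 0.0426), with no filter on low counts (adjusted p = 0.0131) and with only the Ctrl and HS libraries (adjusted p = 0.00359). It also passed without HS+REC scramble replicate 2 or 3 or HS+REC siLonp1 replicate 2 or 3, libraries that are not in this contrast. These are 8 of 24 alternatives, and the others did not pass, with adjusted p up to 0.148 when 1 library was left out. Over the 18 fits that left out 1 library each the value ran from -0.53 to -0.43. For HNF4A the difference was -0.13 (95% interval -0.33 to 0.08) and for VIL1 0.03 (95% interval -0.14 to 0.21).

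The other genes of the intestinal epithelium were read from 8 lists, which hold 169 genes besides the members. Of these, 86 passed the filter, and with siLonp1 averaged over the conditions 37 were lower, 33 were higher and 16 did not pass. That is 43.0% lower and 38.4% higher, against 35.0% and 36.1% of all genes. Past a fold of 2, 7 were lower and 4 higher, or 8.14% and 4.65%, against 1.22% and 2.45% of all genes, and the median log2 fold change of the 86 was -0.07 against 0.004 over all genes. The lists were written with earlier results of these data known, so these shares are descriptions. Some of the genes past a fold of 2 passed the filter through the arm where they were high. These include CEACAM5, CEACAM6, MYO1A and FABP1 for scramble and KRT20 for siLonp1. Of the 34 genes for enterocyte enzymes, transporters and lipid handling, 27 did not pass the filter on low counts, 4 of them with no count in any library.

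**Figure D4:**
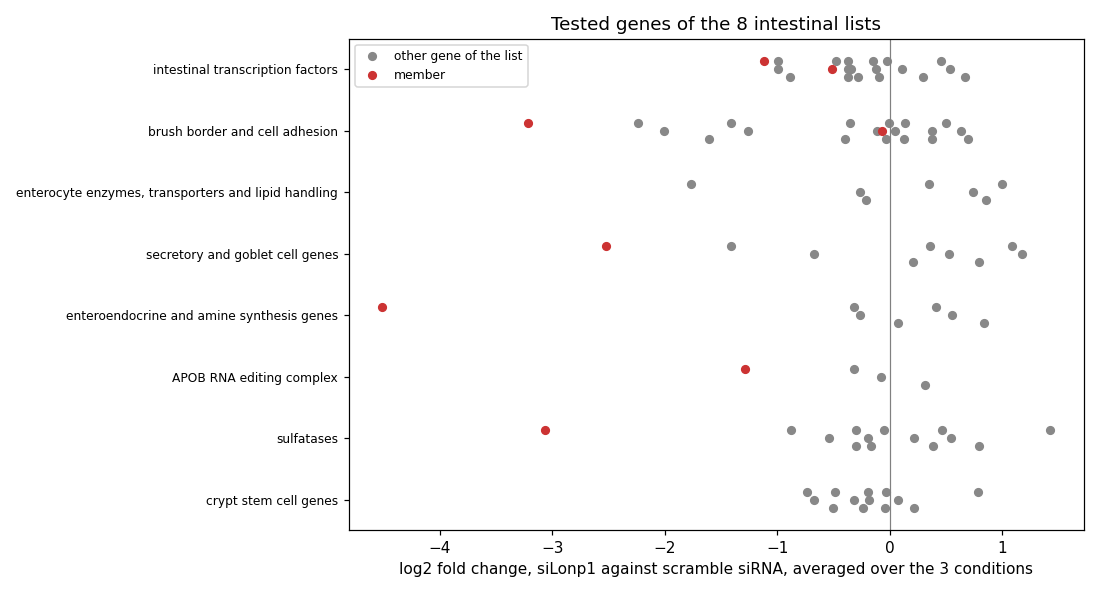
log2 fold change of siLonp1 against scramble siRNA, averaged over Ctrl, HS and HS+REC, for each tested gene of the 8 intestinal lists (rows; points are spread vertically only to be visible); members are red and other genes grey. Each list has grey points on both sides of 0, and DDC at -4.51 is the lowest point.

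Among the other transcription factors 10 of 18 tested were lower with siLonp1, 5 were higher and 3 did not pass, with a median log2 fold change of -0.22. For this list and each of the others, the shares of all genes in the same average are 35.0% lower and 36.1% higher. PDX1, a homeobox factor of duodenum and pancreas, was at -0.995 ± 0.12, and EHF, an epithelial ETS factor, at -0.99 ± 0.04. PDX1 passed the filter through its scramble libraries, with siLonp1 means of 0.612 to 0.958 CPM, so its value is a description. EHF had a mean of 103 CPM in Ctrl scramble and 44.8 CPM in Ctrl siLonp1, and its arms did not overlap in any condition. PRDM1, a repressor known for holding back the adult enterocyte programme before weaning, was at -0.89 ± 0.08, and FOXA2 and ELF3 were both at -0.37. KLF4, a factor of postmitotic surface cells, was at -0.34, GATA6 at -0.29, HNF4G at -0.15 and ESRRA at -0.09. GATA6 was lower in Ctrl (-0.49) and HS (-0.55) and stood at 0.18 in HS+REC (adjusted p = 0.126), and HNF4G and ESRRA passed in HS+REC alone, with HNF4G at 0.02 in HS and ESRRA at 0.02 in Ctrl. KLF5, a factor of proliferating crypt cells, was higher by 0.67 ± 0.04, from a mean of 164 to 279 CPM in Ctrl, and ISX (0.54) and GFI1 (0.45) were higher too. FOXA3 averaged 0.11, but it was at 0.15 in Ctrl (adjusted p = 0.0902), higher in HS (0.39, adjusted p = 8.01e-05) and lower in HS+REC (-0.23, adjusted p = 0.0137).

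**Figure D5:**
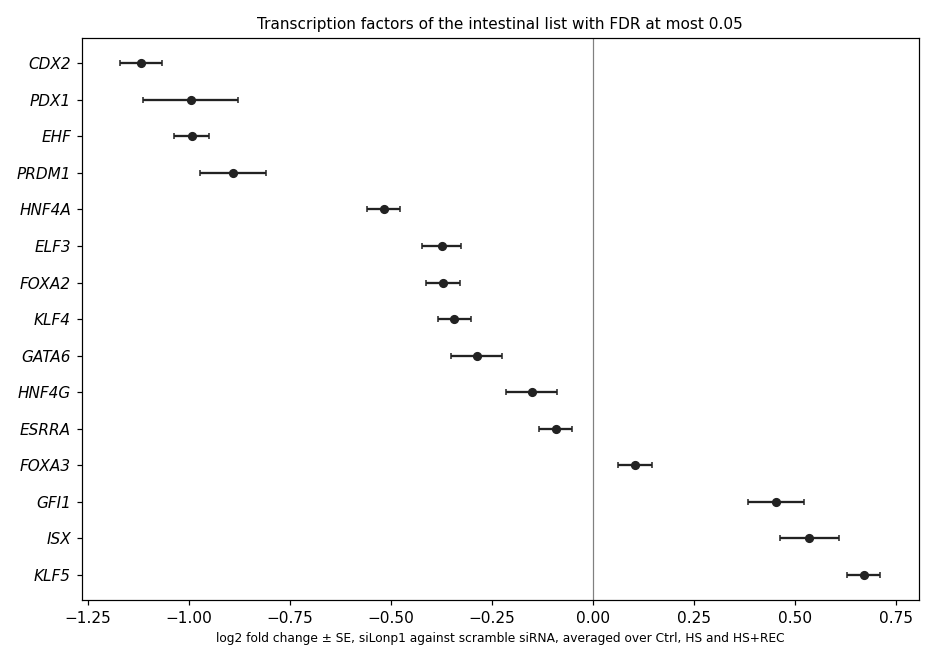
log2 fold change of siLonp1 against scramble siRNA, averaged over the 3 conditions, for 15 transcription factors of the intestinal list past an adjusted p of 0.05, CDX2 and HNF4A included; bars are the standard error from edgeR. CDX2 at -1.12 is the lowest and KLF5 at 0.67 the highest. Not every factor of the list that passed is shown.

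In the brush border and adhesion list 7 of the 18 tested genes besides CDH17 and VIL1 were lower, 7 higher and 4 did not pass. The 5 lower by more than a fold of 2, or 27.8% against 1.22% of all genes, were TSPAN8 (-2.24 ± 0.10), ANKS4B (-2.01 ± 0.07), CEACAM6 (-1.61 ± 0.12), CEACAM5 (-1.41) and MYO1A (-1.26). Of these, CEACAM5 and MYO1A were named after their values were seen. CEACAM6, CEACAM5 and MYO1A had means above 1 CPM in scramble groups only, so they passed the filter through scramble libraries and their values are descriptions. With siLonp1 their means were 0.580 to 0.743, 0.802 to 0.938 and 0.592 to 0.770 CPM. TSPAN8 is a tetraspanin, ANKS4B a scaffold of the complex that links microvilli at their tips, and MYO1A a brush border myosin. TSPAN8 ran from 9.36 to 13.1 CPM in scramble libraries and from 1.31 to 3.35 CPM in siLonp1 libraries, and ANKS4B from 9.25 to 13.2 CPM and from 1.83 to 3.58 CPM. Neither gene overlapped between the arms. EZR, which encodes ezrin, the link between actin and the microvillus membrane, was also named after its values were seen, and it was higher by 0.70 in the same average.

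Around AGR2, 2 of the 8 other secretory genes tested were lower, 5 higher and 1 did not pass. LYZ, lysozyme of Paneth cells, was at -1.42 ± 0.07, whereas MUC1, a membrane mucin, was at 1.08 ± 0.06 and KLK1, a kallikrein, at 1.17 ± 0.09. Around DDC, 2 of the 6 other enteroendocrine and amine synthesis genes tested were lower and 3 higher. GCH1, which makes the cofactor of the amine hydroxylases, was at 0.55 ± 0.04, TH, the hydroxylase upstream of DDC in dopamine synthesis, at 0.41 ± 0.11, and the granin SCG2 at 0.84 ± 0.06. TH overlapped between the arms in Ctrl, at 108% of the scramble mean. It was at 132% in HS and 164.5% in HS+REC, without overlap.

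Around A1CF, 3 other genes of the APOB editing complex were tested. RBM47, the other RNA-binding partner of the deaminase, was at -0.31 ± 0.04, DNAJB11 at 0.31 ± 0.03, and SYNCRIP, at -0.08, did not pass. APOBEC1, the deaminase, did not pass the filter on low counts. Around ARSE, 6 of the 13 other sulfatase genes tested were lower and 6 higher: ARSD, its neighbour in the arylsulfatase cluster of the X chromosome, was at -0.88 ± 0.07, and SULF2, which removes sulfate from heparan sulfate chains, was at 1.43 ± 0.04, from a mean of 31.5 to 89.0 CPM in Ctrl. GALNS, a lysosomal sulfatase, was at 0.79.

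Of the enterocyte genes, 2 of 7 tested were lower and 4 higher. CA12, a carbonic anhydrase, was at 0.86 ± 0.09 and SLC26A2, a sulfate transporter, at -0.21 ± 0.06, and FABP1, the fatty acid binding protein of enterocytes and hepatocytes, was at -1.77 ± 0.15, and KRT20, a keratin of differentiated surface cells, at 1.00 ± 0.21. FABP1 and KRT20 were named after their values were seen. FABP1 passed the filter through scramble libraries, with siLonp1 means of 0.368 to 0.527 CPM. KRT20 passed it through siLonp1 libraries, with scramble means of 0.425 to 0.472 CPM, so both values are descriptions. Of the crypt stem cell genes, 7 of 13 tested were lower and 2 higher, with a median of -0.19. By condition 4 were lower and 2 higher in Ctrl, against 22.9% and 26.3% of all genes. In HS 8 were lower and 3 higher, against 26.7% and 28.1%. After recovery 6 were lower and 2 higher, against 27.3% and 26.8%. The medians were -0.02, -0.49 and -0.14 in that order. LGR5, the receptor that marks crypt base stem cells, was at -0.73 ± 0.06, ASCL2, its partner in the stem cell programme, at -0.67 ± 0.06, CD44 at -0.51 ± 0.04 and MSI1 at 0.79 ± 0.12.

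Of the general epithelial markers, 7 of 11 were higher and 3 lower in the average over conditions, against 36.1% and 35.0% of all genes, and by condition 3 were higher and 2 lower in Ctrl (26.3% and 22.9% of all genes), 7 and 1 in HS (28.1% and 26.7%) and 2 and 0 in HS+REC (26.8% and 27.3%). CDH1, which encodes E-cadherin, was at 0.58 ± 0.03, CLDN4 at 0.34, CLDN7 at -0.28 and CLDN3 at -0.35. The arms overlapped for CLDN4 in Ctrl, for CLDN7 in HS and HS+REC, and for CLDN3 in HS+REC. Of the fibroblast and muscle markers 4 of 10 were tested, with LUM at -1.40 ± 0.06, PDGFRB at 1.11 ± 0.11 and DES at 0.82 ± 0.13. Their summed level was 43.24 to 48.97 CPM in Ctrl scramble and 26.1 to 27.54 CPM in Ctrl siLonp1, 43.88 to 48.07 and 29.44 to 33.15 CPM in HS, and 63.92 to 64.98 and 50.4 to 52.17 CPM after recovery, with no overlap between arms. COL1A1 was higher in HS+REC than in Ctrl by 1.71 ± 0.11 in scramble cells and 1.78 ± 0.11 in siLonp1 cells. Of the immune and endothelial markers 3 of 9 were tested and 2 were higher, among them CD68 at 0.44, and their summed level was 12.07 to 14.77 CPM in scramble and 15.1 to 20.94 CPM in siLonp1 libraries. Of the hepatocyte markers 2 of 8 were tested, with CYP2E1 at 0.71, and its arms overlapped in HS and HS+REC. The part of these markers in the values of the members was not tested.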

How the data were processed

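The authors made stranded mRNA libraries, aligned the reads with STAR 2.7.3a to hg38 and deposited raw counts per gene symbol from featureCounts, the unit used here. Strand setting and treatment of shared reads are not given in the sources used here, so reads of overlapping or antisense genes cannot be told apart. The 3 libraries of a group are independent biological replicates per the methods. The 12832 genes that exceeded 1 CPM in 3 or more libraries, the filter of the methods, were fitted with edgeR 4.0.16 in R 4.3.3 (TMM, quasi-likelihood test, prior count 0.125, 1 model of 6 groups over 18 libraries). Adjusted p is Benjamini-Hochberg over all 12832 genes. DESeq2 1.42.0 was an alternative, besides other scalings, filters and samples. Correlations used log2 CPM with a prior count of 2.

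Members and lists were chosen with earlier results of these data known. Besides members and LONP1, genes were named by 1 rule, with the exceptions given after it: each transcription factor of the list past an adjusted p of 0.05 in the averaged siLonp1 effect, up to 4 genes of each other list by size of that effect (mean CPM of at least 1), up to 4 list genes by HS effect in each arm, and the 3 genes most like each member. CEACAM5, MYO1A, EZR, FABP1, KRT20, RNF43, AXIN2 and SOX9 are exceptions, named after their values were seen. Some list and marker genes, such as COL1A1, SYNCRIP, APOBEC1 and PTPRC, were also named outside the rule. Some genes the rule names and 1 motif searched are not reported here. Same-numbered libraries deviated from their group means with correlations from -0.379 to 0.462 between groups. Libraries with different numbers were not compared, so these values cannot tell whether the numbers pair libraries. The main fit did not pair them, and the replicate number as a block was an alternative. No pair of replicates matched within counting noise (chi-square over its degrees of freedom 3.48 to 25.8). Exonic lengths came from GENCODE v44 and promoters from RefSeq (GRCh38.p14). The scripts were tested on simulated data.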

Additional observations from a re-analysis of the deposited data

Results flagged for a closer look

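Among LONP1 and the tested genes of the intestinal lists, 8 siLonp1 effects differed between a heat condition and Ctrl by the interaction test of edgeR, and 0 of the 3 members tested did. Over all genes 1.39% were lower and 0.475% higher in the interaction with HS, and 0.896% and 0.686% in that with HS+REC. The effect on LONP1 itself was lower in HS than in Ctrl by -0.76 ± 0.11 on the log2 scale (adjusted p = 0.000468), and higher in HS+REC by 0.43 ± 0.10 (adjusted p = 0.0321).

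Of the crypt stem cell genes, LGR5 had a siLonp1 effect that was lower in HS than in Ctrl by -0.67 ± 0.14 (adjusted p = 0.00938). The same difference was -0.56 ± 0.12 for RNF43 (adjusted p = 0.0175) and -0.49 ± 0.13 for AXIN2 (adjusted p = 0.0473). SOX9, a transcription factor of crypt and Paneth cells, had a difference of -0.79 ± 0.14 (adjusted p = 0.00442), and its mean went from 188 CPM in Ctrl siLonp1 to 125 CPM in HS siLonp1.

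In HS+REC the differences were above 0 for GATA6, at 0.68 ± 0.16 (adjusted p = 0.0244), and for RBM47, at 0.42 ± 0.09 (adjusted p = 0.0191). RNF43, AXIN2 and SOX9 were named after their values were seen.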

How the results depend on the processing

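Counts of genes past an adjusted p of 0.05 and a fold of 2 depended most on the thresholds. The siLonp1 effect gave 535 genes in Ctrl, 535 in HS, 536 in HS+REC and 470 averaged. With no filter on low counts it gave 855, 944, 973 and 1109, and with no limit on the fold 6315, 7026, 6938 and 9123. HS in scramble gave 424 genes, 675 with no filter and 4615 with no fold limit, and HS in siLonp1 gave 587 and, with no fold limit, 5420. HS+REC gave 572 in scramble and 733 in siLonp1, 1013 and 1301 with no filter, and 5427 and 6564 with no fold limit. The interaction with HS gave 18, 30 with no filter, 240 with no fold limit and 8 to 26 with 1 library left out. That with HS+REC gave 14, 35, 203 and 8 to 35.

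Of 1880 member values under alternatives, 18 gained a call, 12 lost one and 34 changed sign, 17 of these in interactions of chosen genes and 17 in other values. The latter were VIL1 in the siLonp1 effect in HS (0.0099 with no filter, -0.048 to 0.028 with 1 library left out) and in the HS interaction (-0.013 to 0.065), HNF4A (-0.038 to 0.095), CDH17 (-0.079 to 0.19) and ARSE (-0.012 to 0.15) for HS in scramble, and DDC for HS in siLonp1 (0.00033 with no filter, 0.0045 with only Ctrl and HS libraries, -0.16 to 0.30 with 1 library left out) and for HS+REC in siLonp1 (-0.056 to 0.43). DDC and ARSE passed the filter through scramble libraries, so their heat effects in siLonp1 are descriptions. ARSE for HS went from 0.83 to 1.19 without HS siLonp1 replicate 1, against 7 to 10 counts in Ctrl siLonp1 libraries. That gained call is in the count above and is not read as a result. The interactions were, for the HS interaction, A1CF (-0.033 to 0.17) and DDC (-0.29 to 0.16) and, for that with HS+REC, CDH17 (-0.065 to 0.13), DDC (-0.16 to 0.33) and ARSE (-0.23 to 0.39). HNF4A for HS+REC in scramble passed with library sizes alone, at -0.18 (adjusted p = 0.036). VIL1 in the averaged siLonp1 effect also passed without HS scramble replicate 3, HS+REC scramble replicate 2 or HS+REC siLonp1 replicate 1. The cause was not tested.

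The replicate number as a block gave 533, 532, 535 and 468 genes for the siLonp1 effects and 15 and 14 for the interactions. Among the members it changed only the call of CDH17 for HS+REC in scramble (adjusted p = 0.0484). Depth limits ARSE, at 6 to 21 counts in siLonp1 libraries, and CDX1, with 0 counts throughout.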

Other observations

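Several intestinal transcription factors that were lower with siLonp1 on average rose with heat in both arms. GATA6, a zinc finger factor of the gut epithelium, rose by 1.10 ± 0.11 on the log2 scale with HS in scramble cells (adjusted p = 1.66e-08) and by 1.04 ± 0.12 in siLonp1 cells (adjusted p = 1.09e-07). PRDM1 rose by 1.57 ± 0.13 in HS+REC scramble cells and by 2.33 ± 0.15 in HS+REC siLonp1 cells, where its means were 35.9 and 26.4 CPM. EHF rose by 0.74 ± 0.07 and 1.11 ± 0.08 in the same comparisons.

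FOXA3, a forkhead factor, rose by 1.09 ± 0.07 and 1.32 ± 0.07 with HS in scramble and siLonp1 cells, and was at 0.18 and -0.20 in HS+REC. ISX, a homeobox factor of vitamin A handling in the gut, rose by 0.91 ± 0.13 and 1.22 ± 0.13 with HS. CA2, a carbonic anhydrase, rose by 1.22 ± 0.37 and 1.18 ± 0.32 with HS, at means of 0.168 to 0.573 CPM in the Ctrl and HS groups. Its only group mean above 1 CPM was 1.19 CPM, in HS+REC siLonp1. MUC5AC, a gel-forming mucin, was at 0.35 ± 0.20 in scramble cells (adjusted p = 0.184) and rose by 1.18 ± 0.20 in siLonp1 cells.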
